A study of Mus musculus with 15 samples.

Results

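Oxidative phosphorylation is the stage of respiration at which electrons pass along complexes I to IV of the inner mitochondrial membrane and the proton gradient they build drives ATP synthase, complex V. Most subunits are encoded in the nucleus, and a small core of complexes I, III, IV and V is encoded by mitochondrial DNA. In macrophages, LPS is known to shift metabolism from respiration toward glycolysis, and glucocorticoids are known to restrain the inflammatory response to LPS. The genes described here are those whose array names begin as the nuclear subunits of the 5 complexes do (Nduf with a, b, c, s or v and a number, Sdha to Sdhd, Uqcr, Cox4 to Cox8, and Atp5). The rule found 85 names on 131 probes, and 82 of them were tested among 19506 tested genes: 37 of complex I, 4 of complex II, 8 of complex III, 15 of the 18 of complex IV and 18 of complex V. Cox7b2, Cox8b and Cox8c, tissue-restricted isoforms of complex IV, were not well above background on any of the 15 arrays and were not tested. Among the 82, 78 are subunits. Cox7a2l (a factor of supercomplex assembly), Atp5s (now Dmac2l), Atp5sl (now Dmac2, a complex I assembly factor) and the pseudogene Atp5c1-ps match the rule without being subunits. Ndufa4 was counted in complex I by its name, although its protein is now placed in complex IV.

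The study compared glucocorticoids in RAW264.7 cells, an established mouse macrophage-like line. The 5 groups of 3 arrays were the solvents ethanol and DMSO (vehicle), dexamethasone (DEX), fluticasone furoate (FF), and VSG158 and VSG159, known here by their codes. Steroids were given at 100 nM for 1 h before LPS at 1 ug/ml for 16 h, and total RNA was labelled with Cy3. The series' design text speaks of duplicated treatments, whereas 3 samples are listed for each group, and all 3 were used. The labels do not say whether the vehicle cells also received LPS, nor whether replicates came from separate cultures, so the p-values measure the spread between these samples, which may be technical. No line, clone or genotype differs between the groups.

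On each array the scanner software placed 39.6% to 50.4% of noncontrol spots well above background, and it marked none as saturated. The 12 macrophage markers on the array were well above background on all 15 arrays, and their mean scaled level was 5.33 to 5.54 in every group. None of 5 epithelial markers was tested. Tested were 2 of 6 fibroblast, 3 of 5 T cell, 1 of 4 B cell, 2 of 5 neutrophil and 2 of 5 muscle markers. Dcn (fibroblast), Cd3e and Cd4 (T cell) and Elane and S100a8 (neutrophil) were well above background on all 15 arrays. The mean level of the 2 neutrophil markers was 5.82 to 6.15 with vehicle and 6.14 to 6.53 with DEX. It was 5.35 to 5.84 with FF, 5.71 to 6.51 with VSG158 and 5.58 to 6.40 with VSG159. The 2 tested muscle markers, Myh4 and Tnnt3, were well above background on 9 and 12 arrays. Their mean level was -3.80 to -3.69 with vehicle and lower on every steroid array (-5.77 to -3.86 over the 4 groups). The other muscle markers, Ckm, Myh1 and Actn3, were not well above background on any array. The 1 tested B cell marker, Ms4a1, was well above background on 6 arrays and stood at -4.43 to -3.78 with vehicle, -5.70 to -5.35 with DEX and -5.15 to -4.79 with VSG159, without overlap with vehicle, while FF (-4.82 to -4.19) and VSG158 (-4.93 to -4.05) overlapped vehicle. The part of these markers in the results was not tested. All vehicle and VSG158 arrays and 2 VSG159 arrays were on one slide, and all FF and DEX arrays and VSG159 replicate 3 on the other. In bulk RNA, a change in the cells' make-up and a change of RNA per cell cannot be told apart.

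Promoters are shown for members that moved together in the results that follow: 6 that were higher than vehicle with every steroid, from complexes I, II, III and V, and Cox7a1, lower with every steroid. They were chosen after the matches were seen: 5 of the 6 hold a core, beside 6 of all 32 members with a RefSeq window that were higher with every steroid. They are the 150 bases before the annotated start (RefSeq, GRCm38.p6), 5′ to 3′ on the gene's strand, and capitals mark a match of the NRF1 core GCATGCGC or the ETS core CCGGAAG on either strand.
Ndufa8, chr2:36049339-36049488 (minus): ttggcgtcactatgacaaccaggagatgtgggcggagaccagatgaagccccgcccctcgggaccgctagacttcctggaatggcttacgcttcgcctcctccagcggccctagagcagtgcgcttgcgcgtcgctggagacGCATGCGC
Ndufb4, chr16:37654369-37654518 (minus): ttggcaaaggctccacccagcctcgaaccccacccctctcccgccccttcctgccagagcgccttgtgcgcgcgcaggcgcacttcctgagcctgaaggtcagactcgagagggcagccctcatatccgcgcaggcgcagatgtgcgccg
Sdhd, chr9:50603850-50603999 (minus): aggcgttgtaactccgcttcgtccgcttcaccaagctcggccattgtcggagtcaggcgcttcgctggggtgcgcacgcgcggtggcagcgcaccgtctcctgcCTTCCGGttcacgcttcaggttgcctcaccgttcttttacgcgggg
Uqcr11, chr10:80406822-80406971 (minus): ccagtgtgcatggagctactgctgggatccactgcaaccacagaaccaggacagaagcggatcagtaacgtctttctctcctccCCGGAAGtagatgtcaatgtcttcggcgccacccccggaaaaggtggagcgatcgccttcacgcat
Atp5k, chr5:108434400-108434549 (minus): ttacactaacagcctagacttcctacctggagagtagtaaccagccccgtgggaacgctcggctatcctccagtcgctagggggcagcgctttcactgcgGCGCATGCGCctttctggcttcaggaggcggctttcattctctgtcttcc
Atp5h, chr11:115419920-115420069 (minus): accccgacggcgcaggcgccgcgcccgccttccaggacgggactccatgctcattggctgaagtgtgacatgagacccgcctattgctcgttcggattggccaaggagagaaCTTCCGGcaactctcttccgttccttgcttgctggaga
Cox7a1, chr7:30184021-30184170 (plus): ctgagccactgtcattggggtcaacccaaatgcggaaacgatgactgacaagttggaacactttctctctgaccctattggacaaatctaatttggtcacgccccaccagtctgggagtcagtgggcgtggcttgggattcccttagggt

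NRF1 and the ETS factor GABP are textbook activators of respiratory chain genes. In the 250 bases before the start, searched on both strands, the NRF1 core was present at 8 of the 67 members with a RefSeq window (11.9%) and at 692 of 27025 genes (2.56%). The ETS core was present at 12 of the 67 (17.9%) and at 2115 of the 27025 genes (7.83%). The glucocorticoid receptor core ACANNNTGT was present at 0 of the 67 and at 1828 genes (6.76%). Among the 32 members with a window that were higher with every steroid, 3 held the NRF1 core and 3 the ETS core. Of the 17 called with no steroid, 3 held the NRF1 core and 5 the ETS core. The starts of Ndufb4 and Cox7a1, which went in opposite directions, held neither core. These matches describe letters, not bound sites.

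Subunit genes of all 5 complexes were called higher than vehicle after each steroid, far more often than lower. With DEX 51 of the 82 were higher and 3 lower, with FF 49 and 1, with VSG158 48 and 2, and with VSG159 45 and 1, by limma at a Benjamini-Hochberg adjusted p under 0.05 over all genes. Over all genes tested, 23.2%, 20.9%, 19.7% and 19.1% were higher and 23.1%, 21.4%, 24.5% and 25% lower, in the same order of steroids. The changes were small: the members' median log2 difference from vehicle was 0.38, 0.33, 0.34 and 0.31, beside 0.03, -0.05, -0.06 and -0.06 over all genes. Only 4, 3, 4 and 4 members differed by over 2-fold, called or not. Over all genes 4505 of 19504, 3808 of 19505, 4025 of 19505 and 4316 of 19499 did. With VSG159 the members over 2-fold included Cox6b2 (-1.17) and Ndufa4l2 (-1.22), neither of them called. In the F test over the 5 groups 49 of the 82 members were called, beside 45.1% of all genes.

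**Figure D1:**
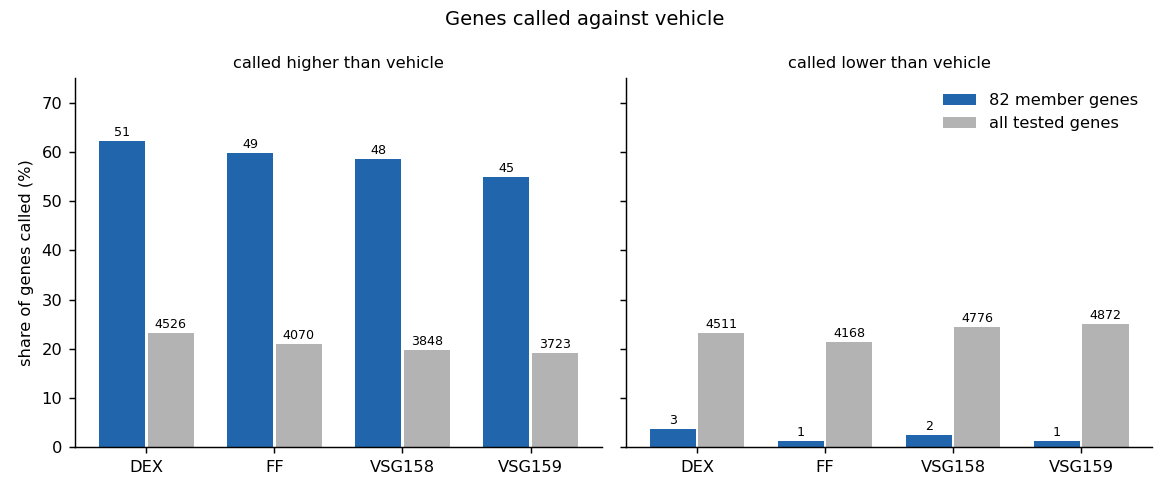
Share of genes called higher (left) or lower (right) than vehicle with each steroid, in percent of the 82 member genes (blue) or of all tested genes (grey); the numbers on the bars are genes. Members called higher number 45 to 51 and members called lower 1 to 3.

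The counts depended on scaling and slide more than the medians did. With each array centred on its median, 11, 14, 8 and 11 members were higher (DEX, FF, VSG158, VSG159) with medians of 0.35, 0.38, 0.28 and 0.39, beside 0.00, -0.01, -0.12 and 0.01 over all genes. These counts are 13.4%, 17.1%, 9.76% and 13.4% of the members, close to the 12.4%, 13.5%, 10.5% and 12.6% of all genes that were higher under that scaling. On the slide that vehicle and VSG158 share, 40 members were higher and 2 lower with VSG158 (median 0.34). With the 2 VSG159 arrays there, 33 were higher and 4 lower (median 0.28). Over all genes on that slide, 3485 of 19505 were higher with VSG158 and 3757 of 19269 with VSG159, and 4473 and 4979 were lower. DEX and FF share no slide with vehicle, and a fit with slide as a block ties them to vehicle through VSG159 replicate 3. In that fit 32 (DEX) and 29 (FF) members were higher and 6 and 4 lower (medians 0.26 and 0.30). Over all genes it gave 3716 of 19504 (DEX) and 3088 of 19505 (FF) higher, and 4530 and 4271 lower. With slide and array position both as covariates, 0, 0, 25 and 4 were higher (medians 0.15, 0.22, 0.31 and 0.20). The groups filled the positions of each slide in order, and position was a linear term. Position and steroid can therefore hardly be told apart in that fit. Over all genes 0.0974%, 3.19%, 15.6% and 7.86% were higher in that fit, so the members' share was above that of all genes with VSG158 (30.5%) and below it with FF (0%) and VSG159 (4.88%). Of the members called in the fit without these covariates, 10, 6, 0 and 3 (in the same order) changed sign without being called, among them Sdhb, Cox5b, Cox8a, Cox7a2l and Atp5g1 with DEX, Sdhb, Cox5b and Cox8a with FF, and Sdhb and Cox5b with VSG159.

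Averaged over the members, each gene first centred on its mean, the 3 vehicle arrays stood at -0.26, -0.29 and -0.19 (log2). The DEX arrays stood at 0.05 to 0.09, FF at 0.01 to 0.15, VSG158 at -0.02 to 0.15 and VSG159 at -0.02 to 0.07. No steroid array reached down to a vehicle array, and the steroid groups overlapped one another. The same gap between vehicle and every steroid array was present for complexes I, II, III and V. It was widest for complex V, where vehicle was -0.36 ± 0.06 (SD, n = 3) and the steroid means lay between 0.08 and 0.10. For complex IV the vehicle arrays (-0.15 to -0.04) overlapped DEX (-0.08 to 0.10), VSG158 (-0.16 to 0.12) and VSG159 (-0.06 to 0.15), and were all below FF (0.01 to 0.15).

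**Figure D2:**
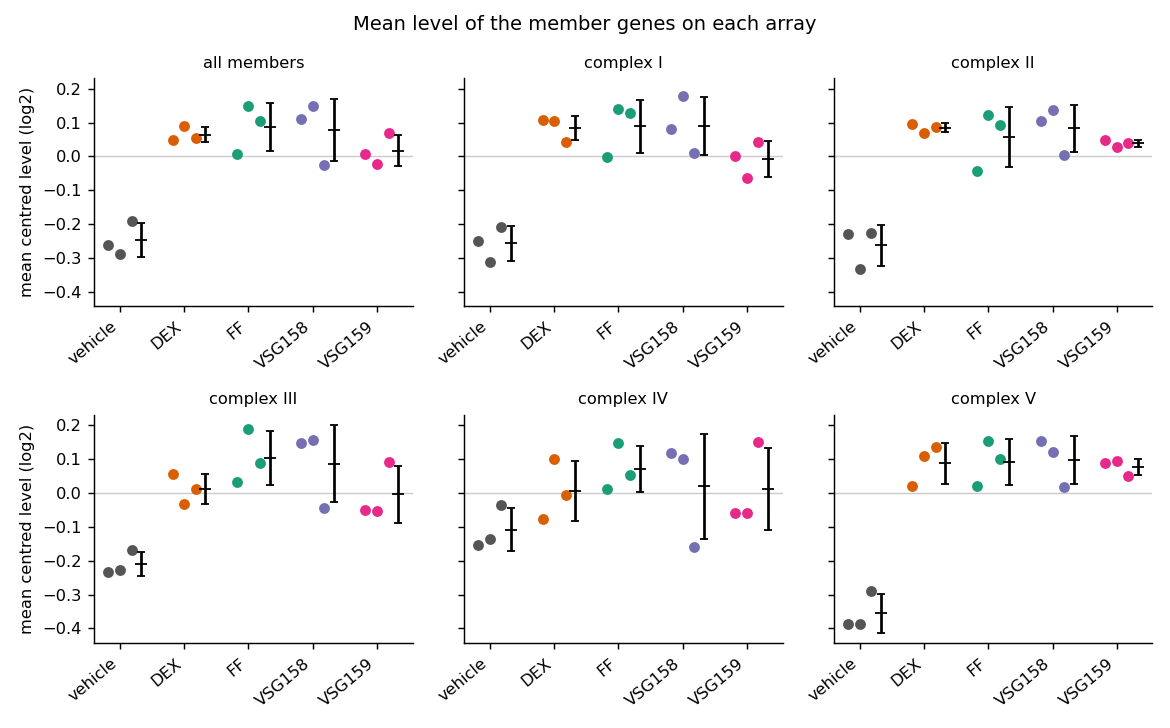
Mean level of the members on each array (log2, each gene centred on its mean over arrays), for all 82 members and for each complex; points are arrays 1 to 3 from left to right, and the black mark is the group mean with SD. Vehicle lies below every steroid array in all panels but complex IV, where the groups overlap except with FF.

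The 4 comparisons share the vehicle arrays, so their calls are not independent. Of the 82, 39 were higher with all 4 steroids (17 of complex I, 2 of II, 3 of III, 7 of IV and 10 of V), beside 15.6% of all genes, 56 were higher with at least 1, 23 were called with none, and none was called in opposite directions. One member, Cox7a1, was lower with all 4, and Cox6b2 and Cox4i2 were lower with some. Of the 54, 50, 50 and 46 calls with DEX, FF, VSG158 and VSG159, 42, 37, 37 and 30 held whichever 1 array was left out. Of the 39 members higher with all 4, 24 kept all their calls on leaving out any 1 array.

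**Figure D3:**
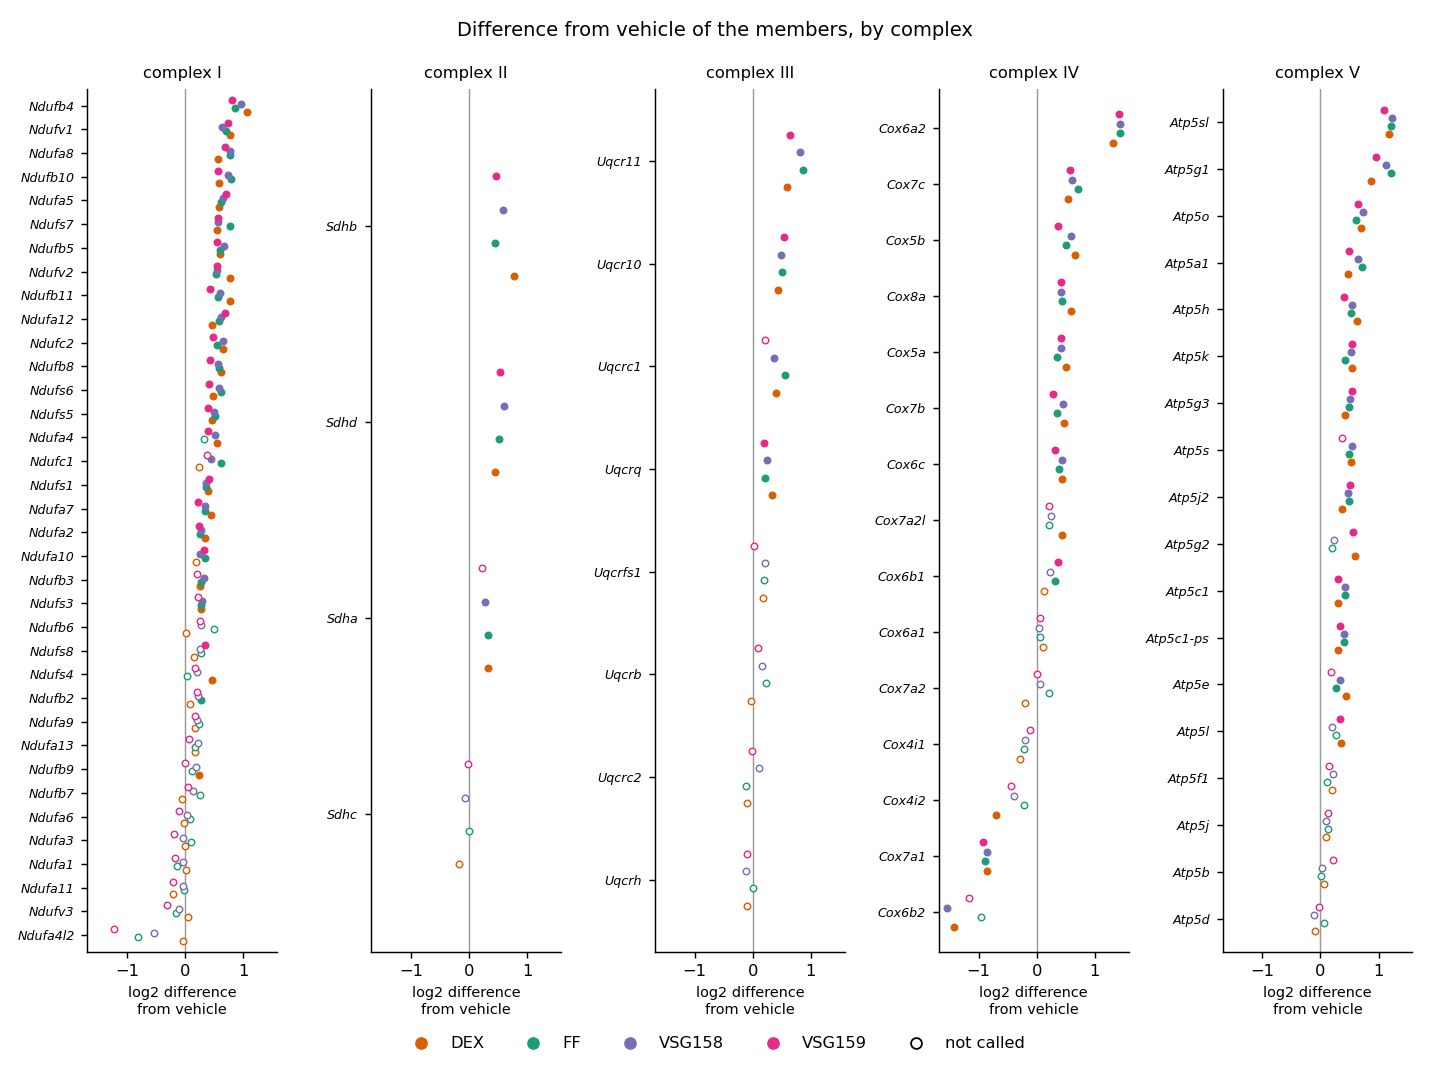
Difference from vehicle of the members (log2, x axis), by complex, sorted within a complex by the mean over the steroids; colours are steroids, and open points were not called. Most points lie right of 0 in every complex, and the points left of -0.5 are the complex IV isoforms Cox6b2, Cox7a1 and Cox4i2 and the dim Ndufa4l2.

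Complex I, NADH dehydrogenase, feeds electrons from NADH into the chain. Of its 37 members 22, 22, 22 and 20 were higher with DEX, FF, VSG158 and VSG159 and none was lower, with medians of 0.34, 0.33, 0.32 and 0.32. Ndufb4, an accessory subunit of the membrane arm, had the largest called difference in this complex with each steroid. Its scaled log2 level was 4.92, 4.86 and 5.12 with vehicle, 6.03, 5.99 and 6.04 with DEX, 5.70, 5.87 and 5.91 with FF, 5.85, 5.89 and 6.02 with VSG158, and 5.85, 5.76 and 5.71 with VSG159. Every steroid array was above every vehicle array, by 1.06 with DEX (SE 0.09, limma adjusted p = 2.5e-06), 0.86 with FF, 0.95 with VSG158 and 0.81 with VSG159.

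Ndufv1, which holds the flavin that accepts electrons from NADH, read 4.92, 4.88 and 4.99 with vehicle and 5.67, 5.65 and 5.76 with DEX. It read 5.52 to 5.70 with FF, 5.46 to 5.65 with VSG158 and 5.53 to 5.75 with VSG159, again with no overlap with vehicle. The differences were 0.76, 0.70, 0.63 and 0.73 in the order DEX, FF, VSG158 and VSG159. Its partner in the NADH module, Ndufv2, differed by 0.78, 0.53, 0.54 and 0.55, all called, while Ndufv3 did not pass the test with any steroid (0.05, -0.15, -0.10 and -0.31).

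Of the core iron-sulfur subunits, Ndufs1 (0.39, 0.36, 0.35 and 0.42) and Ndufs7 (0.54, 0.77, 0.57 and 0.57) rose with every steroid. The VSG158 call of Ndufs1 was lost without VSG158 replicate 1. Ndufs8, another of them, was called higher with VSG159 alone, a call lost without vehicle replicate 2 or 3 or VSG159 replicate 2 or 3. Ndufs5 (0.46, 0.51, 0.49 and 0.39) and Ndufs6 (0.48, 0.62, 0.58 and 0.41), accessory subunits despite their names, also rose with every steroid. The accessory subunits Ndufb8 (0.62, 0.59, 0.57 and 0.43), Ndufb10 (0.57, 0.78, 0.74 and 0.57) and Ndufa5 (0.58, 0.62, 0.65 and 0.70) rose with all 4. Ndufa8 rose with all 4 as well (0.56, 0.77, 0.78 and 0.69), but its DEX arrays read 3.55, 4.26 and 4.41 beside 3.43 to 3.59 with vehicle, so 1 DEX array lay within the vehicle range; that call was lost without vehicle replicate 2 or DEX replicate 2 or 3. The remaining accessory subunits called with all 4 were Ndufa12 (0.46, 0.58, 0.61 and 0.69), Ndufb5 (0.59, 0.59, 0.67 and 0.55), Ndufb11 (0.78, 0.56, 0.60 and 0.43), Ndufc2 (0.64, 0.54, 0.65 and 0.48), Ndufa2 (0.34, 0.25, 0.27 and 0.24) and Ndufa7 (0.45, 0.33, 0.34 and 0.22). Without vehicle replicate 1 or 2, among others, Ndufa2 lost its calls with FF, VSG158 and VSG159, and Ndufa7 and Ndufb11 theirs with VSG159. Ndufa1, Ndufa3, Ndufa6 and Ndufa11, also accessory subunits, were called with no steroid.

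By name group, 7 of the 10 Ndufb members, 6 of the 14 Ndufa, 6 of the 8 Ndufs, 1 of the 2 Ndufc and 2 of the 3 Ndufv members were higher with DEX, and 7, 6, 5, 2 and 2 with FF. Ndufa4l2, an isoform of Ndufa4 known as a target of hypoxia signalling, was well above background on 2, 2, 0, 0 and 1 arrays of vehicle, DEX, FF, VSG158 and VSG159 and was not called. Ndufa4 itself was called with DEX (0.54), VSG158 (0.52) and VSG159 (0.39) and missed the threshold with FF (0.33, adjusted p = 0.052 by limma).

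Complex II, succinate dehydrogenase, joins the tricarboxylic acid cycle to the chain, and 3 of its 4 genes were called higher with DEX, FF and VSG158 and 2 with VSG159. Sdhb, the iron-sulfur subunit, read 5.73, 5.87 and 6.16 with vehicle and 6.69, 6.68 and 6.72 with DEX, a difference of 0.77 (SE 0.14, limma adjusted p = 0.00097). Its FF (6.16 to 6.53) and VSG159 (6.14 to 6.51) arrays reached into the vehicle range, and VSG158 (6.38 to 6.69) did not. The differences were 0.44, 0.59 and 0.46 with FF, VSG158 and VSG159. The FF call was lost without vehicle replicate 1 or 2 or FF replicate 2 or 3, and the VSG159 call without vehicle replicate 1 or 2 or VSG159 replicate 1 or 2.

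Sdhd, a membrane anchor, differed by 0.45, 0.52, 0.60 and 0.53, all called, with vehicle at 4.78 to 4.95 and every steroid array between 5.25 and 5.51. The flavoprotein Sdha differed by 0.33, 0.32, 0.27 and 0.22, with the last not called and each of the others lost without vehicle replicate 2, among others. Sdhc, the other anchor, was not called with any steroid (-0.16, 0.00, -0.07 and -0.02). The anchors thus differed in call within one complex.

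Complex III passes electrons from coenzyme Q to cytochrome c. Of its 8 members 4 were higher with DEX, FF and VSG158 and 3 with VSG159, and none was lower. Uqcr11, a small accessory subunit, read 4.38, 4.44 and 4.54 with vehicle, 5.14, 4.96 and 5.00 with DEX, 5.18, 5.41 and 5.38 with FF, 5.32, 5.40 and 5.11 with VSG158, and 4.93, 5.09 and 5.25 with VSG159. No steroid array overlapped vehicle, and the differences were 0.58, 0.87, 0.82 and 0.63. Uqcr10 (0.44, 0.50, 0.49 and 0.53) and Uqcrq (0.32, 0.20, 0.24 and 0.19), small subunits too, were also called with all 4, though Uqcrq kept the DEX call alone without vehicle replicate 1. The large core subunit Uqcrc1 rose with DEX, FF and VSG158 (0.40, 0.56 and 0.37; VSG159 0.21, not called).

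The second core subunit, Uqcrc2 (-0.10, -0.12, 0.10 and -0.02), the Rieske iron-sulfur protein Uqcrfs1 (0.17, 0.18, 0.21 and 0.02), Uqcrb and Uqcrh were not called with any steroid. The vehicle mean of Uqcrh rests on 2 arrays, since its spot on vehicle replicate 1 was excluded as an outlier. Cyc1, cytochrome c1, is a catalytic subunit of this complex outside the name rule. It rose by 0.98, 0.91, 0.93 and 0.75.

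Complex IV, cytochrome c oxidase, reduces oxygen and has tissue isoforms of several subunits. It held the most mixed set: 8, 8, 7 and 8 of 15 were higher and 3, 1, 2 and 1 lower. The largest rise and the falls of the family were all in isoforms whose sister gene is broadly expressed. Cox6a2, the heart and muscle isoform, read -2.00, -2.16 and -2.08 with vehicle, where 0 is the array's 75th percentile, and -0.84, -0.71 and -0.73 with DEX. It read -0.79 to -0.50 with FF, -0.97 to -0.40 with VSG158 and -0.88 to -0.34 with VSG159. All 15 arrays were well above background and no steroid array overlapped vehicle, and the differences were 1.32, 1.43, 1.43 and 1.41 (SE 0.16, limma adjusted p of 1.8e-05 to 4.3e-05). The liver isoform Cox6a1, expressed in most tissues, was not called (0.11, 0.06, 0.03 and 0.05).

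Cox7a1, another heart and muscle isoform, went the other way. It read 0.05, 0.22 and 0.34 with vehicle, -0.49, -0.78 and -0.69 with DEX, -0.74, -0.51 and -0.78 with FF, -0.50, -0.45 and -1.02 with VSG158, and -0.81, -0.97 and -0.37 with VSG159. Every steroid array lay below every vehicle array, with differences of -0.86, -0.88, -0.86 and -0.92 (SE 0.18, limma adjusted p of 0.0014 to 0.0023). With median scaling the FF and VSG159 calls were lost. The broadly expressed Cox7a2 was not called (-0.20, 0.21, 0.05 and 0.01).

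Cox6b2, the testis isoform, was dim: it was well above background on 3, 1, 3, 1 and 2 arrays of vehicle, DEX, FF, VSG158 and VSG159. It was lower with DEX (-1.42) and VSG158 (-1.54) and was not called with FF (-0.96) or VSG159 (-1.17), and each of its calls was lost without any 1 of the vehicle arrays, among others. The broadly expressed Cox6b1 was called higher with FF and VSG159 and not called with DEX or VSG158. Its FF call was lost without vehicle replicate 2 or FF replicate 2. Cox4i2, an isoform known to respond to oxygen, was lower with DEX alone among the calls: it read 0.68, 0.55 and 0.29 with vehicle and -0.34, 0.01 and -0.25 with DEX (-0.70, SE 0.23, limma adjusted p = 0.024). That call was lost without vehicle replicate 1 or 2 or DEX replicate 1 or 3. The difference between DEX and each of the other steroids was not called for Cox4i2 or Cox6b2. Cox4i1, the usual isoform, was not called (-0.29, -0.21, -0.20 and -0.11).

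Of the other subunits of complex IV, Cox5a (0.50, 0.35, 0.42 and 0.42), Cox5b (0.66, 0.50, 0.58 and 0.36), Cox6c (0.43, 0.39, 0.43 and 0.31), Cox7b (0.48, 0.35, 0.45 and 0.29), Cox7c (0.54, 0.71, 0.61 and 0.58) and Cox8a (0.59, 0.44, 0.42 and 0.42) rose with all 4 steroids. Without vehicle replicate 1, Cox5a lost its call with FF, and Cox5b, Cox6c and Cox7b lost theirs with VSG159. Without that array Cox7c also lost its calls with DEX, VSG158 and VSG159, and Cox8a its calls with FF, VSG158 and VSG159. The 4 isoforms Cox4i2, Cox6a2, Cox6b2 and Cox7a1, the names that are no subunit and Ndufa4l2 were then set aside. Among the 73 subunits left, 46, 45, 44 and 42 were higher with DEX, FF, VSG158 and VSG159. None was lower, which follows from the choice: Cox4i2, Cox6b2 and Cox7a1 were the only members called lower with any steroid.

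**Figure D4:**
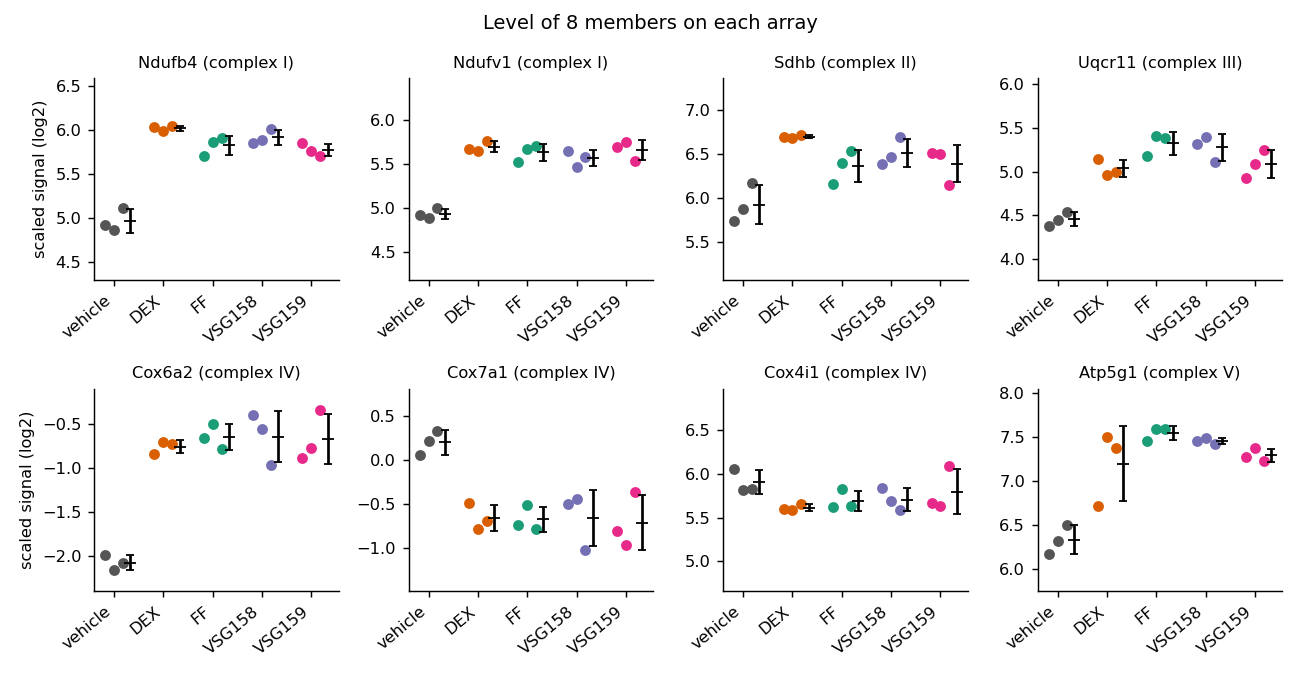
Scaled log2 signal (0 is the array's 75th percentile) of 8 members on each array; points are arrays 1 to 3 from left to right, the black mark is the group mean with SD, and every panel spans the same range of log2 units. Vehicle lies apart from all steroid arrays for Ndufb4, Ndufv1, Uqcr11, Cox6a2, Cox7a1 and Atp5g1, reaches the lowest of them for Sdhb and overlaps them for Cox4i1. The members that lie apart met, with some steroid, a naming rule that required arrays without overlap, so their separation is no independent result.

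Complex V, ATP synthase, makes ATP from the proton gradient, and 14, 12, 12 and 12 of its 18 members were higher and none lower, with medians of 0.43, 0.42, 0.45 and 0.40. The genes Atp5g1, Atp5g2 and Atp5g3, encode the same mature subunit c of the rotor ring. Atp5g1 read 6.17, 6.32 and 6.50 with vehicle, 6.72, 7.50 and 7.38 with DEX, 7.46, 7.60 and 7.60 with FF, 7.45, 7.49 and 7.42 with VSG158, and 7.27, 7.38 and 7.23 with VSG159. No steroid array overlapped vehicle, DEX replicate 1 lay nearest to vehicle, and the differences were 0.87, 1.22, 1.13 and 0.96. Atp5g3 rose by 0.42, 0.49, 0.51 and 0.54. Atp5g2 was called with DEX (0.60) and VSG159 (0.56) and not with FF (0.19) or VSG158 (0.23), and neither FF nor VSG158 differed from DEX by a call. Both Atp5g2 calls were lost without vehicle replicate 1 or 2, among others.

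Atp5g1 had 3 tested probes that did not agree. The file places them on chromosome 11, minus strand, of mm9. The one described above, at 95934315 to 95934374, and another, at 95934924 to 95934983, were called higher with all 4 steroids (the latter by 0.80, 1.10, 1.00 and 0.98). The last, at 95930317 to 95930376, was lower with DEX (-0.81, limma adjusted p = 0.0046) and VSG159 (-0.58, limma adjusted p = 0.028) and was not called with FF (-0.41) or VSG158 (-0.50). It was the only other probe of a called member that was called in the opposite direction. Over the 35 further tested probes of 27 members, those of called members numbered 22, 25, 24 and 20 and were called the same way in 15, 15, 15 and 12 cases.

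In the catalytic head, Atp5a1 (alpha; 0.47, 0.71, 0.64 and 0.49) and Atp5c1 (gamma; 0.31, 0.41, 0.43 and 0.31) were called with all 4 steroids. Atp5b, the catalytic beta subunit, was not called with its brightest probe (0.06, 0.01, 0.02 and 0.22). A second Atp5b probe was called higher with DEX, FF and VSG159 (0.43, 0.27 and 0.26), and another with FF (0.35). Atp5d, the delta subunit, was called with none (-0.10, 0.06, -0.11 and -0.02). In the stalk, Atp5o, the subunit that ties the head to the stator, rose by 0.70, 0.62, 0.73 and 0.65, with vehicle at 5.71 to 5.90 and every steroid array at 6.30 to 6.64. Atp5h (0.63, 0.52, 0.55 and 0.41), Atp5k (0.55, 0.43, 0.53 and 0.55) and Atp5j2 (0.36, 0.49, 0.47 and 0.51) rose with all 4; without vehicle replicate 2 the FF, VSG158 and VSG159 calls of Atp5k were lost, and without DEX replicate 3 its DEX call. Atp5f1 (now Atp5pb), the b subunit, was called with no steroid (0.21, 0.11, 0.21 and 0.14).

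Of the names that are no subunit, Atp5sl had the largest rise of any member but Cox6a2 and, with FF, Atp5g1: it read 1.20 to 1.52 with vehicle and 2.44 to 2.73 over the steroid arrays, differences of 1.19, 1.22, 1.24 and 1.09. Atp5c1-ps, whose probe may share sequence with its parent gene, rose by 0.30, 0.40, 0.40 and 0.34. Atp5s was called with DEX, FF and VSG158 (0.53, 0.49 and 0.54), and Cox7a2l with DEX (0.43).

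Between the steroids the members differed little. In 6 pairs of steroids at the same dose and time, 1 difference over the 82 members was called. Ndufs4, a complex I subunit needed for its assembly, was lower with FF than with DEX by 0.42 (95% interval -0.65 to -0.20, SE 0.10, limma adjusted p = 0.0435), and this call was lost under 11 of 14 alternatives, adjustment over the 6 pairs together among them, and on leaving out any of 11 of the 15 arrays. Ndufs4 read 4.85, 4.73 and 4.99 with DEX and 4.36, 4.49 and 4.46 with FF, with no overlap, and 4.31, 4.32 and 4.57 with vehicle. VSG158 (4.56 to 4.63) lay between them, and VSG159 (4.42 to 4.65) overlapped FF and lay below DEX. Over all genes 4.14% were called between FF and DEX, 1.99% between VSG158 and DEX, 5.55% between VSG159 and DEX, and 0% in each of the pairs among FF, VSG158 and VSG159, by limma. At an unadjusted p under 0.05 these last 3 pairs held 0 (VSG158 and FF), 4 (VSG159 and FF) and 2 (VSG158 and VSG159) members. The pairs with DEX held 9 (FF), 1 (VSG158) and 13 (VSG159). The share of all genes at that unadjusted threshold was not counted, so these numbers are not read as a result about the members.

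A missing call does not show that the steroids act alike. The 95% interval of a member's difference reached 0.22 to either side of it at the median, and in each pair 80 of the 82 intervals lay within a log2 difference of 1 in either direction. Within 0.5 lay 65 intervals for FF and DEX, 71 for VSG158 and DEX, 71 for VSG159 and DEX, 76 for VSG158 and FF, 71 for VSG159 and FF and 76 for VSG158 and VSG159. The 2 dim members Ndufa4l2 and Cox6b2 had the widest intervals.

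**Figure D5:**
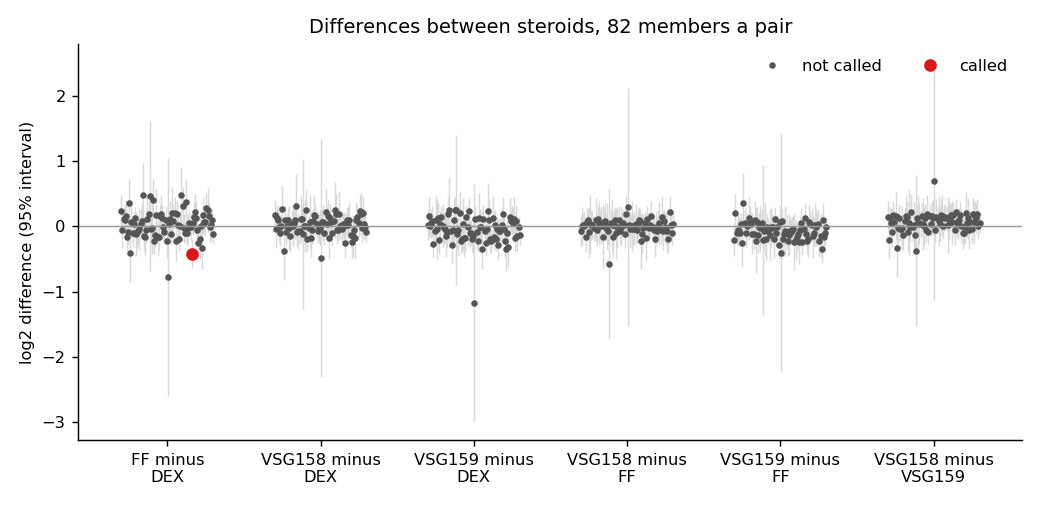
Difference between steroids (log2) for the 82 members in each of 6 pairs, with 95% intervals in grey; the red point is the called difference, Ndufs4 between FF and DEX (-0.42). Nearly all points lie within 0.5 of 0, and the longest intervals belong to dim members.

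Other genes of the pathway were counted from lists that were written with earlier results of these data known. The counts of every list stand beside 23.2%, 20.9%, 19.7% and 19.1% of all genes higher with DEX, FF, VSG158 and VSG159. The shares of all genes lower were 23.1%, 21.4%, 24.5% and 25%. Of 5 tested subunits and carriers outside the name rule, 5, 3, 3 and 3 were higher with DEX, FF, VSG158 and VSG159 and none lower. Besides Cyc1 these were Atpif1, the inhibitor of ATP synthase (0.95, 0.99, 0.97 and 0.94), and Ndufab1, the acyl carrier protein of complex I (0.56, 0.57, 0.62 and 0.43). Cytochrome c itself, Cycs, was called with DEX alone (0.41; 0.08, 0.29 and 0.13 with FF, VSG158 and VSG159).

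The 11 subunits encoded by mitochondrial DNA showed no such shift: 2, 1, 1 and 1 were higher and 1, 1, 1 and 0 lower, with medians of -0.05, 0.04, -0.23 and -0.01. Over all genes 19.1% to 23.2% were higher and 21.4% to 25% lower, and 11 genes are few to set against those shares. ND6 was called higher with all 4 steroids (0.88, 0.80, 0.72 and 0.85) and ND5 lower with DEX, FF and VSG158 (-0.52, -0.53 and -0.89; VSG159 -0.42, not called). The file annotates the ND3, ATP8, ND4L and COX2 probes to a nuclear copy on chromosome 1, so those values may not come from mitochondrial RNA. The difference between nuclear and mitochondrial genes was not tested.

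Of 47 tested factors that assemble the complexes, 27, 24, 23 and 21 were higher and 2, 1, 1 and 1 lower, with medians of 0.40, 0.37, 0.32 and 0.28. By the smallest adjusted p with FF, the leading ones were Coa7, a complex IV factor (0.88, 1.16, 0.93 and 1.06), Sdhaf1, which helps insert iron-sulfur clusters into Sdhb (1.72, 1.83, 1.65 and 1.65), Ndufaf4, a complex I factor (2.17, 2.47, 2.34 and 2.28), and Lrpprc, which stabilizes mitochondrial mRNAs (1.68, 1.81, 1.80 and 1.81). Coa5 was lower with all 4 (-0.70, -0.85, -0.82 and -0.90).

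In the tricarboxylic acid cycle, which supplies NADH and succinate, 8, 9, 7 and 8 of 13 genes were higher and 0, 0, 0 and 1 lower. Idh3a, the catalytic subunit of NAD-dependent isocitrate dehydrogenase, rose by 1.93, 1.71, 1.75 and 2.04 and fumarase, Fh1, by 0.95, 0.99, 0.95 and 0.94. Citrate synthase, Cs, was lower with VSG159 (-0.32) and not called with the others. Of 12 tested genes of coenzyme Q synthesis and handling 5, 6, 5 and 5 were higher and 1, 1, 1 and 3 lower, with Coq2 and Coq4 among those higher with all 4 and Coq10b, which binds coenzyme Q, lower with all 4.

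Of 19 listed regulators of mitochondrial biogenesis and transcription, 14 were tested, and the coactivator Ppargc1a was not among them. Of the 14, 7, 6, 7 and 6 were higher and 0, 1, 1 and 1 lower, with medians of 0.57, 0.40, 0.38 and 0.38. The coactivators Pprc1 (1.88, 2.11, 2.03 and 2.12) and Ppargc1b (1.16, 1.81, 1.57 and 1.71), the mitochondrial RNA polymerase Polrmt (0.94, 1.06, 0.88 and 0.89) and the transcription factor Tfb1m (1.66, 1.57, 1.61 and 1.47) were higher with every steroid, as was Tfam (0.75, 0.68, 0.73 and 0.57). Nrf1, Gabpa and Esrra were not called with any. Yy1 was lower with FF, VSG158 and VSG159 (-0.54, -0.46 and -0.58).

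The mitochondrial ribosome, which makes the mitochondrially encoded subunits, had 52, 54, 53 and 47 of 77 genes higher and 2 lower with each steroid, and protein import 18, 17, 15 and 14 of 24 higher and none lower. Timm9 (1.94, 2.24, 2.14 and 2.29) and Tomm5 (1.48, 1.63, 1.54 and 1.54) were among the import genes higher with all 4. Of 5 tested genes that tie LPS to respiration in macrophages, 1, 2, 1 and 1 were higher and 2, 3, 3 and 3 lower. Among all genes 19.1% to 23.2% were higher and 21.4% to 25% lower, and 5 genes are too few to set against those shares. Nos2, whose product nitric oxide inhibits complex IV, was lower (-1.45, -2.55, -2.36 and -2.69), as was Acod1, which makes itaconate, an inhibitor of succinate dehydrogenase (-0.51, -0.67, -0.71 and -0.53). Sod2, the mitochondrial superoxide dismutase, was higher (1.10, 1.16, 1.20 and 1.23). Hif1a, a transcription factor of the hypoxia response, was lower with FF, VSG158 and VSG159 (-0.60, -0.44 and -0.67; DEX 0.00, not called), and Ucp2, a carrier of the inner membrane, was higher with FF (0.53) and not called with the others (0.04, 0.12 and 0.37).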

How the data were processed

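One-colour Agilent arrays of 15 samples were used. Per the file headers, the authors made the deposited intensity values (processed signal, background-subtracted and detrended) with the scanner software Feature Extraction (version 10.7.3.1, protocol GE1_107_Sep09, array design on mm9). The deposited matrix holds the authors' log2 values, used as an alternative; the submitters' processing notes name limma. Here spots marked as uniformity or population outliers (0.478% of spots) were set to missing, spots of a probe were averaged, and each array's 75th percentile was subtracted from its log2 processed signals, a scale on which levels of different probes are not compared. A probe was tested if well above background on at least 2 of 3 arrays of a group (28508 probes), and a gene is its brightest tested probe (19506 genes, 1891 values missing). All 15 arrays were fitted in limma 3.58.1 (R 4.3.3) with group alone (residual df 10); 10 contrasts were tested two-sided, with Benjamini-Hochberg adjustment over all genes within each, and called under 0.05. Intervals are 95% from the same fit. Promoters were searched with Python 3. The number of arrays limits the precision.

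The members and lists were chosen with earlier results of these data known. Named are preset members, the 6 largest rises and falls per steroid and 3 per steroid pair among called members whose arrays do not overlap, members called with all 4 steroids or in opposite directions, names that are no subunit, and up to 4 genes per other list by smallest adjusted p with FF; other names were chosen after their values were seen. A result on 1 member is not reported here; counts and medians include it. Replicate numbers were checked for pairing, and for no contrast did all 3 same-numbered pairs of deviations correlate above 0.1. All 3 were positive for DEX and vehicle (0.126, 0.0968 and 0.258) and for VSG158 and FF (0.0645, 0.0883 and 0.294). Pairing by number was thus not shown, and this check cannot exclude it. Alternatives covered scaling, background, probe choice and filter, slide and position, a replicate block, the deposited matrix and leaving out each array.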

Additional observations from a re-analysis of the deposited data

Results flagged for a closer look

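The difference of Ndufs4 between FF and DEX stood out because it was the only 1 of the members' tests between steroids to pass: -0.42 (SE 0.10, limma adjusted p = 0.0435). It was higher with DEX on 3 of 3 arrays than on any FF array. All 6 of these arrays were on one slide. The call was lost under 11 of 14 alternatives and on leaving out any of 11 of the 15 arrays.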

How the results depend on the processing

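Members called higher numbered 51, 49, 48 and 45 (DEX, FF, VSG158, VSG159). They numbered 11, 14, 8 and 11 with median scaling (13.4%, 17.1%, 9.76% and 13.4%, beside 12.4%, 13.5%, 10.5% and 12.6% of all genes); 0, 0, 25 and 4 with slide and position as covariates (0%, 0%, 30.5% and 4.88%, beside 0.0974%, 3.19%, 15.6% and 7.86%); 32 and 29 with DEX and FF under slide as a fixed block; 31 with DEX in the deposited matrix; and 28 with VSG159 under no filter on dim probes. Over all genes, 3716 of 19504 (DEX) and 3088 of 19505 (FF) were higher under slide as a fixed block. In the deposited matrix 3899 of 19504 genes were higher with DEX, and under no filter 3064 of 36863 with VSG159. Leaving out 1 array gave 43 to 52, 37 to 52, 40 to 51 and 30 to 46 members higher. Members called lower (3, 1, 2 and 1) numbered 1, 0, 2 and 0 with median scaling, 0 with each steroid under slide and position, 6, 4, 2 and 6 with slide as a fixed block, 1 with DEX and with VSG158 under no filter, 1 with VSG158 under the replicate block, 2 with FF and 3 with VSG159 with every probe by itself (added after seeing the data), 3 with VSG159 under slide as a random block and 4 on one slide. Leaving out 1 array gave 1 to 3 (DEX), 1 to 2 (VSG158) and 1 to 6 (VSG159; 6 without VSG159 replicate 3).

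The median of the members stayed above 0 with each steroid under each alternative. With DEX it moved to 0.28 with the percentile over detected probes, 0.28 with quantile normalization, 0.22 with normexp, 0.24 in the deposited matrix, 0.26 with slide as a block and 0.15 with slide and position; with FF to 0.22 and with VSG159 to 0.20 under slide and position; with VSG158 to 0.28 and with VSG159 to 0.39 under median scaling. Slide and position turned the sign of 10, 6, 0 and 3 called members, the deposited matrix of 2 and normexp of 1 with DEX. Among those turned by slide and position were Atp5g1 (-0.47), Cox5b (-0.32), Cox7a2l (-0.16), Cox8a (-0.13), and Sdhb (-0.25), beside the complex IV median (-0.13), with DEX, Cox5b (-0.13), Cox8a (-0.020), Sdhb (-0.19) and the complex IV median (-0.020) with FF, and Cox5b (-0.19) and Sdhb (-0.14) with VSG159. The cause was not tested, and with slide and position as covariates, position can hardly be told apart from steroid, since the groups filled the positions in order.

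Members called between FF and DEX (1) numbered 0 with median scaling, the other percentile, quantile normalization, normexp, the deposited matrix, no filter, the mean of all probes, one slide, slide and position, the replicate block and adjustment over the 6 pairs, and 0 to 1 on leaving out 1 array (0 for 11 of the 15). Between VSG158 and DEX, 1 member was called with slide as a fixed block and 0 otherwise in the fit as reported. Under the replicate block 47, 42, 46 and 40 members were higher and 2, 1, 1 and 1 lower than vehicle. Dim signal limits Cox6b2 and Ndufa4l2.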
